A study of Arabidopsis thaliana with 12 samples.

Results

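Phytosulfokine (PSK) given at 1 µM was compared directly with PSK given at 100 nM, in 3 whole-seedling libraries of each dose out of the 12 libraries of the series. All 6 came from 7-day-old tpst seedlings of Arabidopsis thaliana that had the peptide in their liquid medium for 5 h. The 6 libraries were found by the treatment named in their labels. Of the 32833 genes in the count table, 27420 are protein-coding genes of the nuclear chromosomes, and 19931 of these had enough counts to be tested. A further 289 genes encode ribosomal RNA (rRNA) or lie in the mitochondrial or chloroplast genome, and the 100 of them that were tested are described apart. The other groups of the series, 3 untreated libraries of tpst and 3 of Col-0 of the same age, shared the estimate of the spread between libraries, and untreated tpst is given as the level without added peptide. Their labels give no treatment and time 0, whereas the study's methods describe a water mock, so their harvest hour beside the treated seedlings is not known. The mutant is a T-DNA insertion line in the Col-0 background, and each replicate pooled seedlings.

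PSK is a sulfated pentapeptide hormone that is cut from secreted precursors. The receptor kinases PSKR1 and PSKR2 perceive it at the plasma membrane together with the co-receptor BAK1, and the signal is known for promoting root and cell growth and for tuning immune responses. Tyrosylprotein sulfotransferase (TPST) adds the sulfates that PSK and other secreted peptides need for full activity, so a tpst mutant offers a background in which added PSK is not overlaid by the plant's own. The comparison of the doses addresses whether a higher peptide concentration changes the response of the whole seedling.

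Few nuclear messenger RNAs passed the test between the doses. Of 19931 nuclear protein-coding genes, 37 (0.186%) passed an adjusted p under 0.05 in the edgeR quasi-likelihood test over 20506 genes, 25 higher (0.125%) and 12 lower (0.0602%) at 1 µM. Over all 20506 genes the count was 49 (0.239%). Of the 37, only 3 (0.0151% of those tested) differed by 2-fold or more, and all 3 were higher at 1 µM: CML38, ATL23 and AT1G49700. The median log2 change over all nuclear protein-coding genes was -0.00059, a value that the scaling of the libraries sets near 0, and 95% of the genes lay between -0.51 and 0.54. Over all 19931 genes the 95% interval of the change excluded a 2-fold difference in either direction for 87.6% and a 1.5-fold difference for 72.8%. Among the 14719 genes whose higher dose reached a mean of at least 5 CPM (counts per 1000000 counts of a library, after TMM scaling), these shares were 99.3% and 93.5%. At an unadjusted p under 0.05 the count was 2026 genes (10.2%), and for 3642 genes (18.3%) all 3 libraries of 1 dose lay above all 3 of the other.

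**Figure D1:**
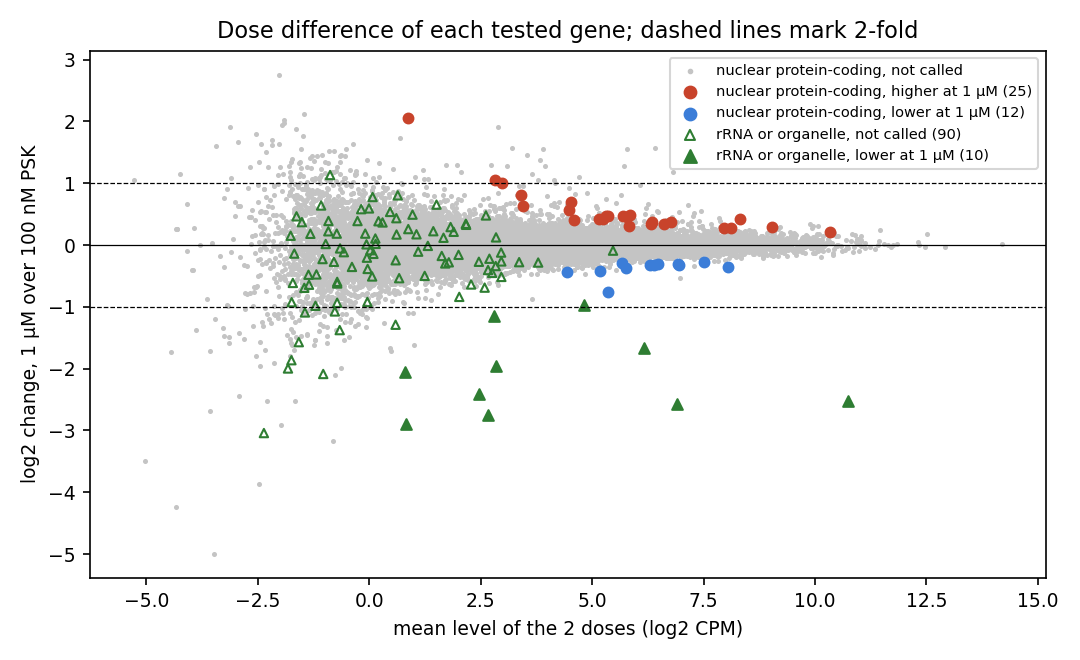
Log2 change of each tested gene at 1 µM over 100 nM PSK (vertical axis) against its mean level in the 2 doses in log2 CPM (horizontal axis). The 37 called nuclear protein-coding genes are filled circles and lie close to 0 with 3 at or beyond the 2-fold line, while the 10 called rRNA and organelle genes (filled triangles) all lie below 0.

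The number of small differences called changed with the libraries in the fit. One control library was unlike its partners: in pairwise chi-square tests of counts, Col-0 replicate 3 gave values of 14.9 and 16.4 for each degree of freedom, and all remaining pairs within a group gave 2.89 to 4.91. Without that library the test called 514 nuclear protein-coding genes (2.56%), of which 341 were higher (1.7%) and 173 lower (0.86%), with all 37 among them. With the 6 PSK libraries alone it called 447 (2.32%), of which 326 were higher (1.69%) and 121 lower (0.628%), again with all 37, and 413 genes were called in both settings. These calls were of small size: their median absolute log2 change was 0.25 without Col-0 replicate 3 and 0.26 with the 6 libraries, and 14 (0.0696%) and 12 (0.0623%) of them reached 2-fold. Without Col-0 replicate 2 the count was 75. Leaving out 1 of the PSK libraries gave between 6 and 45 calls, with 6 without 100 nM PSK replicate 1, 18 without 100 nM replicate 2, 9 without 1 µM replicate 2 and 8 without 1 µM replicate 3. Nothing in the labels says more of the replicates than their number, and the methods call them independent biological replicates.

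Set against untreated tpst, 100 nM PSK changed 654 nuclear protein-coding genes (3.28%), 150 of them (0.753% of those tested) by 2-fold or more, and 1 µM PSK changed 1299 (6.52%), 230 of them (1.15%) by 2-fold or more, by the same edgeR test. The larger number at 1 µM is not itself a test of the dose, which is the direct contrast above. The 3 comparisons share libraries, so their calls are not independent. Of the 37 genes called between the doses, 28 also differed from untreated tpst at 1 µM alone, 3 at both doses (EARLI1, RD19A and PME68), 2 at 100 nM alone (BAM5 and CML35) and 4 at neither (RPL28A, AT2G36300, ORRM2 and AT5G57345).

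CML38 (AT1G76650, TAIR10 chromosome 1, 28766750 to 28768138), a calmodulin-like calcium sensor known from low-oxygen and wound responses, was at 4.23, 5.13 and 4.50 CPM with 100 nM PSK and at 6.50, 8.36 and 14.0 CPM with 1 µM. The groups did not overlap, and the highest value came from 1 µM replicate 3. The log2 change was 1.06 (SE 0.225, edgeR adjusted p = 0.0414). Untreated tpst was at 2.85 ± 0.648 CPM (SD, n = 3), below both doses. ATL23 (AT5G42200, chromosome 5, 16860286 to 16861290), a RING-type ubiquitin ligase, was at 4.82, 4.44 and 6.29 CPM with 100 nM and at 8.09, 9.38 and 13.9 CPM with 1 µM, again with replicate 3 the highest. Its log2 change was 1.01 (SE 0.200, adjusted p = 0.0186), and untreated tpst stood at 3.61 ± 0.866 CPM (SD, n = 3). AT1G49700, annotated as a plant protein of unknown function, was low, at 0.230, 1.02 and 0.858 CPM with 100 nM and 2.81, 2.77 and 3.29 CPM with 1 µM (log2 2.06, SE 0.367, adjusted p = 0.00731). Its mean was under the 5 CPM set for named genes, and it is named because it is 1 of the 3. Without 1 µM replicate 3 the adjusted p was 0.343 for CML38, 0.249 for ATL23 and 0.0698 for AT1G49700, and without 100 nM replicate 1 it was 0.31, 0.162 and 0.0625. CML38 also lost its call without 100 nM replicate 2 or 3, 1 µM replicate 2 or untreated tpst replicate 1 or 2, and with nuclear protein-coding genes alone (0.0548), and ATL23 without 100 nM replicate 2 or 1 µM replicate 2.

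GAT1 (AT1G08230, chromosome 1, 2583594 to 2586969), a plasma membrane transporter of gamma-aminobutyric acid, stood at 7.63, 8.18 and 7.40 CPM with 100 nM and at 14.5, 13.2 and 12.8 CPM with 1 µM. All libraries of 1 µM were above all of 100 nM (log2 0.81, SE 0.120, adjusted p = 0.00075). Untreated tpst, at 9.70 ± 0.257 CPM (SD, n = 3), lay between the doses. GATA8 (AT3G54810, chromosome 3, 20296130 to 20298827), a zinc-finger transcription factor, rose from 44.0, 42.0 and 44.0 CPM to 58.5, 57.3 and 64.9 CPM (log2 0.48, SE 0.0721, adjusted p = 0.00095). Here untreated tpst, at 39.0 ± 1.44 CPM (SD, n = 3), lay below both doses. GAT1, GATA8, RPL34, RPL36AB and ATPMEPCRF were the 5 of 37 genes called under all 23 alternative fits, and each of the other 32 lost its call in at least 1.

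Genes of the cell wall were found on both sides. BXL1 (AT5G49360), a beta-xylosidase of the wall that is also used as a marker of sugar starvation, stood at 31.3, 37.5 and 30.9 CPM with 100 nM and at 52.1, 45.3 and 40.3 CPM with 1 µM (log2 0.47, adjusted p = 0.0109). The call was lost without 100 nM replicate 1 or 3 or 1 µM replicate 1 or 2, with adjusted p-values of 0.0762 to 0.113. PME68 (AT5G47500), a probable pectin methylesterase, was higher at 1 µM by a log2 of 0.34 (adjusted p = 0.0162), and its adjusted p was 0.0711 to 0.178 without 100 nM replicate 1 or 2 or 1 µM replicate 2 or 3. ATPMEPCRF (AT5G53370, chromosome 5, 21649532 to 21651713), another pectin methylesterase, went the other way. It was at 63.6, 58.6 and 60.4 CPM with 100 nM and at 47.7, 46.6 and 46.3 CPM with 1 µM (log2 -0.38, SE 0.0624, adjusted p = 0.00334), with untreated tpst at 60.3 ± 1.98 CPM (SD, n = 3), close to the lower dose. It overlaps genes on the opposite strand, and whether the authors counted by strand is not given in the sources used here.

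Among nuclear protein-coding genes the largest called fall was that of BAM5 (AT4G15210, chromosome 4, 8666334 to 8669526), a beta-amylase that accounts for most of the beta-amylase activity of Arabidopsis leaves. It stood at 53.6, 47.1 and 54.1 CPM with 100 nM PSK and at 31.6, 28.9 and 30.8 CPM with 1 µM, without overlap (log2 -0.76, SE 0.124, edgeR adjusted p = 0.0113). The adjusted p was 0.0523 to 0.111 without 100 nM replicate 1 or 3 or any 1 of the 1 µM libraries. Untreated tpst was at 32.5 ± 5.13 CPM (SD, n = 3). BAM5 was thus higher at 100 nM than at the other 2 levels: 100 nM exceeded untreated tpst by a log2 of 0.66 (adjusted p = 0.00444), and 1 µM differed from it by -0.09 (adjusted p = 0.761). EARLI1 (AT4G12480, chromosome 4, 7406065 to 7406994), a cell wall protein of the lipid-transfer family, fell in steps. Untreated tpst was at 274 ± 5.32 CPM (SD, n = 3), the 100 nM libraries at 131, 154 and 129 CPM and the 1 µM libraries at 111, 106 and 116 CPM. The step between the doses was a log2 of -0.32 (SE 0.0614, adjusted p = 0.0135, and 0.0512 to 0.178 without 100 nM replicate 2 or any 1 of the 1 µM libraries), beside one of -0.99 from untreated tpst to 100 nM. EARLI1 has an overlapping gene on the opposite strand.

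**Figure D2:**
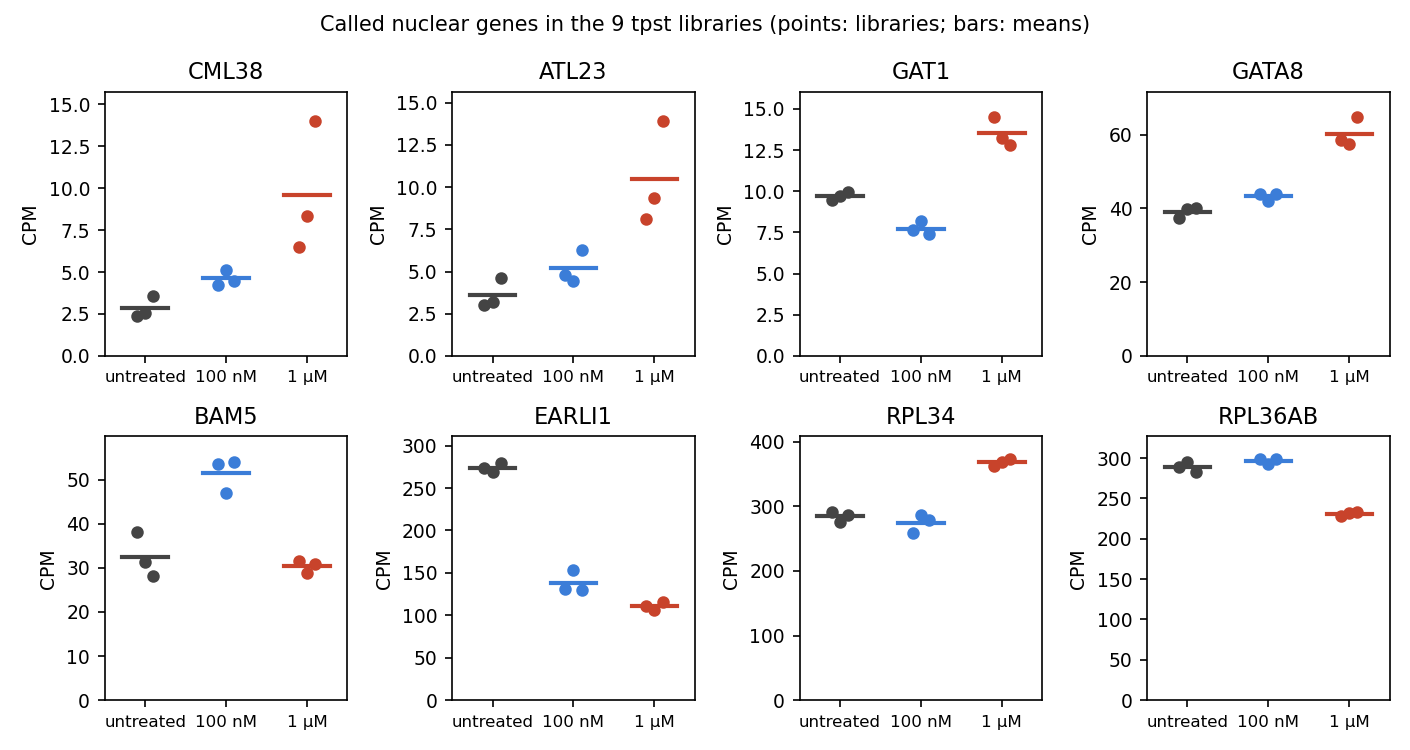
Level in CPM (vertical axis, from 0) of 8 called nuclear genes in the 3 untreated, 3 100 nM and 3 1 µM PSK libraries of tpst, with a point per library and a bar at the mean. CML38, ATL23, GAT1, GATA8 and RPL34 are higher at 1 µM and EARLI1 and RPL36AB lower, and BAM5 is higher at 100 nM than in the other 2 groups.

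By their place relative to untreated tpst, the 25 rises fell into 8 genes whose mean without peptide lay below both doses and 17 whose mean lay between them. The 8 were CML38, ATL23, AT1G65490, GATA8, BXL1, PME68, ECI2 and RD19A. RD19A, a cysteine protease, was at 221 CPM in untreated tpst, 253 CPM with 100 nM and 305 CPM with 1 µM (means, n = 3). ECI2, an enoyl-CoA isomerase of peroxisomal fatty acid breakdown, was at 48.7, 50.9 and 62.8 CPM. The call of RD19A was lost without 100 nM replicate 1 or 2 or 1 µM replicate 3 (adjusted p up to 0.0913), and that of ECI2 without 100 nM replicate 1 or 2 or any 1 of the 1 µM libraries (up to 0.249) and with the length and GC trends taken out (0.0649). Of the 12 falls, the untreated mean lay above both doses for 5 (EARLI1, AIG2B, AT3G19850, AT3G18280 and AT3G50370) and between them for 7. No test was made of these orders, since the dose contrast and the order use the same libraries.

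The promoters of 4 called genes are shown as examples. They are CML38 and ATL23, which reached 2-fold in the main fit, BAM5 with the largest called fall, and EARLI1. EARLI1 is 1 of the 5 falls with the untreated mean above both doses. All 4 lost their call in at least 1 alternative fit. AT1G49700, also 2-fold higher, had a mean under 5 CPM and is not shown. Each is the 250 bases before the annotated start, read 5′ to 3′ on the gene's strand from the RefSeq TAIR10.1 genome, with motif matches in capitals.
CML38 (chr1:28768139-28768388, minus strand): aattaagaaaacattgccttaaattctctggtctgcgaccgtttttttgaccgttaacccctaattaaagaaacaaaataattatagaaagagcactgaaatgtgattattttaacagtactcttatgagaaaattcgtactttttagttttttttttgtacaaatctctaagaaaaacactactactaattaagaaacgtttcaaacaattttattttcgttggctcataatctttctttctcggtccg
ATL23 (chr5:16860036-16860285, plus strand): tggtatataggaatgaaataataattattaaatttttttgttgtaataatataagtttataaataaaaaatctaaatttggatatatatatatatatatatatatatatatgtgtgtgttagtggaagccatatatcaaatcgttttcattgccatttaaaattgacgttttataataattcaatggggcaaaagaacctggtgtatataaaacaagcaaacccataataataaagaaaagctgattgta
BAM5 (chr4:8669527-8669776, minus strand): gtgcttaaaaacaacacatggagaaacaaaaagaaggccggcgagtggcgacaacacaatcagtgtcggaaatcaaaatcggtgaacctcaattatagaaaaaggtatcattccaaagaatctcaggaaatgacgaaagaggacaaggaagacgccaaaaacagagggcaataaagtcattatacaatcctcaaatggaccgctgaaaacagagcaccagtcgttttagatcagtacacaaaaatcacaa
EARLI1 (chr4:7406995-7407244, minus strand): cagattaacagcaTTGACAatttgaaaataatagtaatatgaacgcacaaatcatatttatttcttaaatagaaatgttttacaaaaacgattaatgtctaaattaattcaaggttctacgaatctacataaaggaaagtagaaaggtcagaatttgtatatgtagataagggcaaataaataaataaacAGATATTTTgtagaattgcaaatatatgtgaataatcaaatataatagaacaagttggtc

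The motifs searched on both strands were the W-box of WRKY factors (TTGACT or TTGACA), the G-box (CACGTG), the GCC-box of ethylene-response factors (GCCGCC), the telo-box (AAACCCTA) and the evening element (AAAATATCT). Only EARLI1 among the 4 held a match, a W-box and, on the opposite strand, an evening element. A W-box was present in 6 of the 25 promoters of genes higher at 1 µM (24%), in 3 of the 12 of genes lower at 1 µM (25%) and in 33.2% of the 19930 promoters of all tested nuclear protein-coding genes. The evening element was present in 1 of the 25, in 2 of the 12 and in 2.46% of all, and the G-box in 0 of both called sets and 7.26% of all. The telo-box was present in 1 of the 25, in 1 of the 12 and in 3.52% of all, and the GCC-box in 1 of the 25, in 0 of the 12 and in 1.92% of all. With so few promoters in the called sets these shares are descriptions.

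The components of PSK signalling itself did not pass the test between the doses. Of the 15 tested members of the PSK and sulfated-peptide list, 0 were called by edgeR, 0 by DESeq2 and 0 had an unadjusted p under 0.05, with a median log2 change of -0.0013. PSKR1, the main receptor, was at 12.5, 13.8 and 10.9 CPM with 100 nM and at 13.4, 12.2 and 13.5 CPM with 1 µM, overlapping ranges with a 95% interval of the log2 change from -0.17 to 0.32. PSKR2 was at 19.6, 17.7 and 18.7 CPM and at 18.3, 18.23 and 19.0 CPM (interval -0.20 to 0.18). Precursors are named here by the symbols of the count table, which can differ from the names PSK1 to PSK5 used by the study. The intervals ran from -0.41 to 0.25 for PSK5 (AT5G65870) and from -0.25 to 0.47 for PSK6 (AT3G44735). They ran from -0.50 to 0.23 for PSK3 (AT3G49780) and from -0.43 to 0.60 for PSK1 (AT1G13590). PSK2 (AT2G22860) was below 1.2 CPM in all 6 libraries, which left its interval at -0.88 to 1.55. TPST (AT1G08030, chromosome 1, 2489409 to 2493327) was at 6.29, 7.76 and 7.52 CPM with 100 nM and at 8.75, 9.26 and 7.10 CPM with 1 µM (log2 0.22, SE 0.135, adjusted p = 0.618), so reads from the locus were present in this mutant at both doses, beside 17.1 CPM in Col-0.

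The core hypoxia genes had the highest median change of the 35 lists examined. Low oxygen stabilises group VII ethylene-response factors in plants, and these switch on fermentation enzymes, the plant cysteine oxidases that mark the same factors for degradation, and further regulators. Of the 20 members tested, 18 had a positive log2 change, the median was 0.33 against -0.00059 over all nuclear protein-coding genes, 7 were higher and 0 lower at an unadjusted p under 0.05, and 1 was called (CML38), beside 10.2% and 0.186% of all nuclear protein-coding genes. DESeq2 called 3 higher, of 130 nuclear protein-coding genes that it called in all. Over the 23 alternative fits the median ran from 0.25 to 0.48. The summed level of the list was 771 to 912 CPM in the 100 nM libraries and 968 to 1280 CPM in the 1 µM libraries, without overlap, and 861 to 912 CPM in untreated tpst.

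LBD41 (AT3G02550), a transcription factor of the hypoxia response, was at 20.03, 47.7 and 59.9 CPM with 100 nM and at 79.7, 121 and 180 CPM with 1 µM, whereas untreated tpst had 5.69, 9.45 and 20.3 CPM. AT3G10040, the hypoxia response attenuator HRA1 in RefSeq, was at 12.3, 32.8 and 38.5 CPM and at 47.0, 74.9 and 124 CPM, with untreated tpst at 6.15, 6.99 and 12.6 CPM. LBD41, AT3G10040 and ADH1 were chosen for description after their values were seen. For LBD41 and AT3G10040 the doses did not overlap and the log2 changes were 1.57 and 1.55, but the libraries of 1 dose differed by more than 2-fold among themselves and the adjusted p-values were 0.328 and 0.309. PCO1 (AT5G15120), a plant cysteine oxidase, was at 4.46, 9.20 and 9.07 CPM with 100 nM and at 16.1, 20.15 and 30.5 CPM with 1 µM (log2 1.55, SE 0.299, adjusted p = 0.091). DESeq2 called PCO1 with an adjusted p of 0.00101, as did edgeR without 1 µM replicate 1 (adjusted p = 0.0334). PCO2 followed with 4.59, 11.2 and 11.2 CPM against 15.5, 22.1 and 28.2 CPM (log2 1.28, adjusted p = 0.20, DESeq2 adjusted p = 0.0324), and PDC1, pyruvate decarboxylase of ethanol fermentation, with 11.02, 19.5 and 18.9 CPM against 26.4, 34.0 and 46.0 CPM (log2 1.104, adjusted p = 0.286). In all of these 100 nM replicate 1 was the lowest and 1 µM replicate 3 the highest of the 6 libraries. ADH1, alcohol dehydrogenase, was at 19.6, 31.7 and 25.3 CPM and at 34.8, 31.0 and 35.6 CPM, ranges that overlap (log2 0.41, adjusted p = 0.678).

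**Figure D3:**
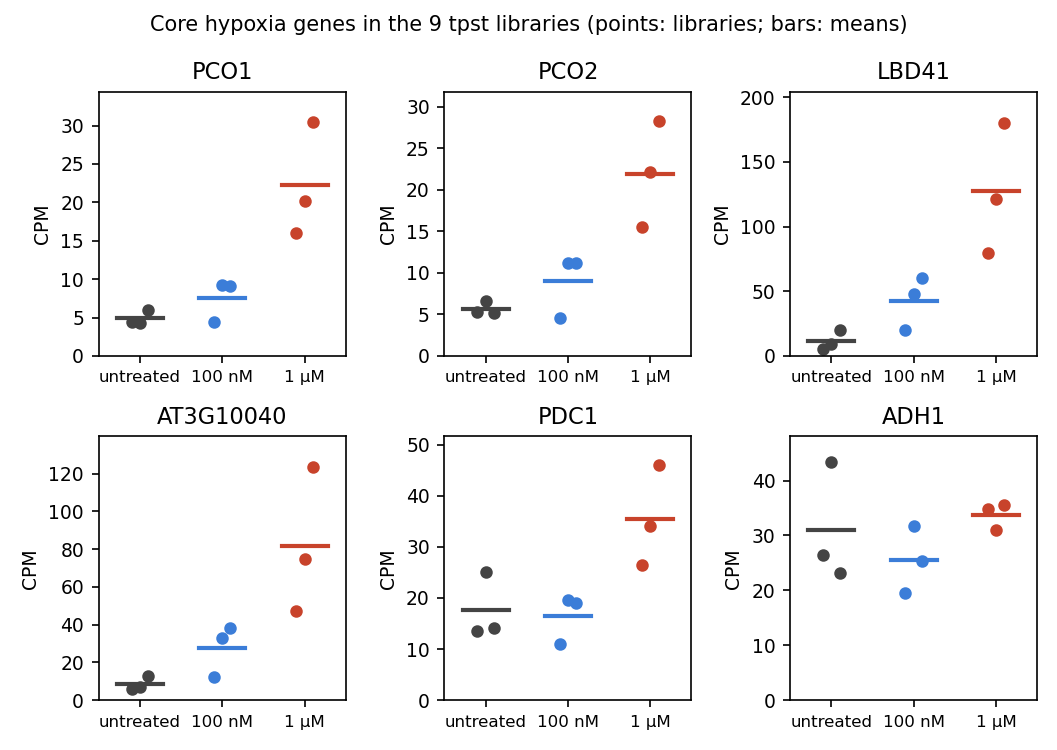
Level in CPM (vertical axis, from 0) of 6 core hypoxia genes in the 3 untreated, 3 100 nM and 3 1 µM PSK libraries of tpst, with a point per library and a bar at the mean. PCO1, PCO2, LBD41, AT3G10040 and PDC1 have their 3 highest libraries at 1 µM with wide spread, and the ADH1 libraries of the doses overlap.

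Genes of the translation machinery and of mitochondrial respiration gave several of the other calls. The list of cytosolic ribosomal proteins was drawn from gene descriptions once the table was in hand. Of its 196 tested members 2 were called higher (RPL28A and RPS8A) and 1 lower (RPL36AB), with a median log2 change of 0.10. Over all nuclear protein-coding genes 0.125% were called higher and 0.0602% lower. A positive change was found for 160 of the 196, 53 were higher and 3 lower at an unadjusted p under 0.05, and for 116 the libraries of the doses did not overlap. Over all nuclear protein-coding genes 49.8% were positive, 10.2% had an unadjusted p under 0.05 and 18.3% did not overlap. Without Col-0 replicate 3, 52 of the list were called higher and 2 lower, beside 1.7% and 0.86% of all. RPL36AB (AT3G23390, chromosome 3, 8375333 to 8376436) was at 299, 293 and 299 CPM with 100 nM and at 228, 232 and 233 CPM with 1 µM (log2 -0.36, SE 0.0529, adjusted p = 0.000605), while RPL28A was at 463, 468 and 483 CPM and at 569, 569 and 585 CPM (log2 0.29, adjusted p = 0.00729, and up to 0.079 without 100 nM replicate 1 or 2 or 1 µM replicate 2 or 3). RPS8A rose by a log2 of 0.21 (adjusted p = 0.0257), a call lost without any 1 of the 6 PSK libraries or untreated tpst replicate 2 (up to 0.204) and with trends over gene length and GC content taken out (0.0718). Many cytosolic ribosomal proteins have near-identical paralogs, and how the authors treated fragments with several alignments is not given in the sources used here, so values of single copies are uncertain.

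Nuclear genes for organellar ribosomal proteins and for respiratory complexes were gathered after the calls had been seen and are described only. RPL34 (AT1G29070, chromosome 1, 10149791 to 10151407), a protein of the large chloroplast ribosomal subunit, was at 258, 286 and 280 CPM with 100 nM and at 362, 369 and 372 CPM with 1 µM, the lowest adjusted p of the nuclear protein-coding genes (log2 0.42, SE 0.0545, adjusted p = 0.0001). AT2G21290, a mitochondrial ribosomal protein, rose by a log2 of 0.47 (adjusted p = 0.00731). Another called ribosomal protein gene, RPL18 (AT1G48350), was at 222, 228 and 228 CPM with 100 nM and at 266, 283 and 272 CPM with 1 µM. RPL18 was called in 18 of the 23 alternative fits. The organellar ribosomal list had a median of 0.02 over 50 tested genes, with 2 called higher and 0 lower. At an unadjusted p under 0.05, 7 were higher and 1 lower, beside 10.2% of all nuclear protein-coding genes. The respiratory list had 3 of 57 called higher, beside 0.125% of all nuclear protein-coding genes, a median of 0.10 and 44 positive changes, beside 49.8% positive over all. SDH7A, a plant-specific subunit of succinate dehydrogenase (complex II), was at 46.7, 49.7 and 49.0 CPM with 100 nM and at 61.3, 71.6 and 70.3 CPM with 1 µM (log2 0.48, adjusted p = 0.00927). AT3G03100 and AT2G47690, annotated as subunits of NADH dehydrogenase (complex I), rose by log2 0.37 and 0.45 (adjusted p = 0.00927 and 0.0415). AT2G21290, SDH7A and AT3G03100 lost their calls without 100 nM replicate 1 or 1 µM replicate 2 or 3 (adjusted p of 0.0668 to 0.1001). AT2G47690 lost its call without any 1 of the 100 nM libraries, 1 µM replicate 2 or 3, Col-0 replicate 1 or untreated tpst replicate 2 or 3 (up to 0.301), and also with upper-quartile factors (0.0594), with thinned counts (0.0566) and with nuclear protein-coding genes alone (0.0584), and it has an overlapping gene on the opposite strand.

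These changes moved with gene length. Of 5 classes of equal size by length, the shortest nuclear protein-coding genes (81 to 1183 bases) had a median log2 change of 0.05. They held 15 of the 25 called rises and 4 of the 12 called falls. The longest (from 2590 bases) had a median of -0.05 and held 2 of the rises and 4 of the falls. The medians of the classes between declined in order. The called rises had a median length of 1075 bases, the called falls 1935.5 and all tested genes 1782. Of 5 classes by GC content, the highest had a median of 0.02 and held 10 called rises and 3 called falls. The lowest had a median of 0.0021 and held 7 and 3. Within single libraries, the median deviation of the shortest minus that of the longest class was 0.07 to 0.13 at 1 µM, -0.08 to 0.03 at 100 nM, -0.02 to 0.07 in untreated tpst and -0.20 in Col-0 replicate 3. With the library-wise trends over length and GC content taken out, a step added after seeing the data, the median of the cytosolic ribosomal proteins was 0.05 and that of the respiratory list 0.07. That fit called 5 ribosomal proteins higher and 2 lower, and 56 nuclear protein-coding genes in all (36 higher, 20 lower), 32 of them among the 37. The part of length in the changes of these lists was not tested further, and the core hypoxia median stayed at 0.33.

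Growth, wall and photosynthesis lists gave 0 calls each in the edgeR test over all 12 libraries, with small medians. Of 47 cell expansion genes 37 had a positive change (median 0.10), beside 49.8% positive over all nuclear protein-coding genes. At an unadjusted p under 0.05, 7 were higher and 0 lower, beside 10.2% of all, and DESeq2 called 3 of its 130. Without Col-0 replicate 3 edgeR called 4 higher and 0 lower, beside 1.7% and 0.86% of all. XTH9, a xyloglucan-modifying enzyme, was at 117, 119 and 124 CPM with 100 nM and at 148, 141 and 138 CPM with 1 µM (log2 0.25, adjusted p = 0.0697, 0.0021 without Col-0 replicate 3 and 0.0497 without Col-0 replicate 2). PIP1B, a plasma membrane aquaporin, was at 305, 320 and 323 CPM and at 347, 382 and 372 CPM (log2 0.22, adjusted p = 0.092, and 0.00094 without Col-0 replicate 3). In the list of extensins and root hair wall proteins 6 of 35 were positive, beside the same 49.8%, and the median was -0.16. At an unadjusted p under 0.05, 2 were higher and 5 lower, and DESeq2 called 0. Without Col-0 replicate 3 edgeR called 0 of this list higher and 4 lower, beside 1.7% and 0.86% of all. EXT3, the extensin needed for the cell plate in embryos, was at 518, 466 and 477 CPM and at 439, 423 and 419 CPM (log2 -0.19, adjusted p = 0.129, and 0.0084 without Col-0 replicate 3). Nuclear photosynthesis genes had a median of 0.08, 9 higher and 3 lower of 56 at an unadjusted p under 0.05, and 1 call by DESeq2, and without Col-0 replicate 3 there were 12 called higher and 1 lower, beside 1.7% and 0.86% of all nuclear protein-coding genes. With the length and GC trends taken out their median was 0.02. Root markers, 37 tested, had a median of -0.02 (0 higher and 2 lower unadjusted, 0 by DESeq2), and their summed level of 4684 to 4781 CPM at 100 nM and 4608 to 4838 CPM at 1 µM overlapped. The 5 tested of 22 seed storage and late embryogenesis genes summed to 49.96 to 53.4 CPM and 49.9 to 58.6 CPM.

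**Figure D4:**
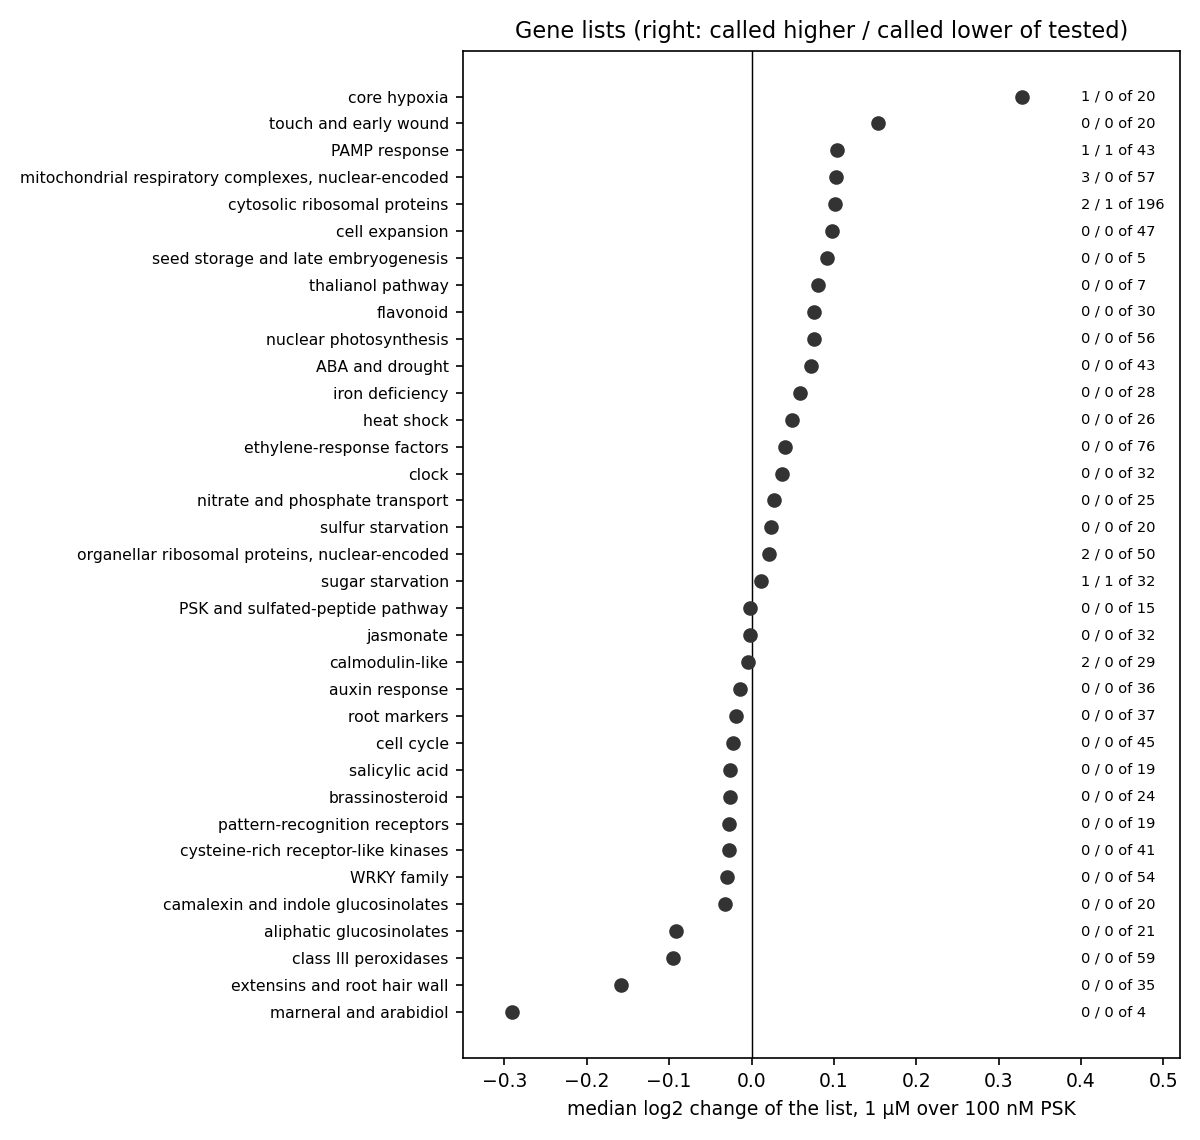
Median log2 change at 1 µM over 100 nM PSK (horizontal axis) of the tested members of 35 gene lists (vertical axis), with the number called higher, called lower and tested at the right. Core hypoxia lies highest at 0.33 and the 4 tested marneral and arabidiol genes lowest at -0.29, and most lists lie within 0.1 of 0.

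The called genes of the defence lists between the doses were CML38 and EARLI1, both in the list of genes induced by microbial patterns. Of 54 tested WRKY transcription factors, regulators of immunity that bind the W-box, 0 were called by edgeR and 0 by DESeq2. Their median was -0.03, and 2 were higher and 3 lower at an unadjusted p under 0.05, beside 10.2% of all nuclear protein-coding genes. WRKY18 was at 30.5, 38.4 and 37.5 CPM with 100 nM and at 39.7, 45.2 and 47.7 CPM with 1 µM (log2 0.32, adjusted p = 0.129, and 0.0215 without Col-0 replicate 3). The PAMP-response list (genes induced by microbial patterns) had CML38 called higher and EARLI1 lower of 43, beside 0.186% of all nuclear protein-coding genes called. At an unadjusted p under 0.05, 7 were higher and 3 lower, beside 10.2% of all. For 14 the libraries of the doses did not overlap, beside 18.3% of all. The median was 0.10 and ran from -0.02 to 0.19 over the alternative fits. Pattern-recognition receptors (19 tested, median -0.03), salicylic acid genes (19, -0.03), jasmonate genes (32, -0.0024) and camalexin and indole glucosinolate genes (20, -0.03) had 0 calls by either tool. They had 1, 2, 5 and 2 members at an unadjusted p under 0.05, beside the same 10.2% of all. The 2 salicylic acid members were higher and the members of the other lists lower. Aliphatic glucosinolate genes had a median of -0.09 with 4 of 21 positive, beside 49.8% positive over all, and 0 calls by either tool. Of these genes 5 were lower and 0 higher at an unadjusted p under 0.05, again beside 10.2% of all. Without Col-0 replicate 3 edgeR called 4 of these genes lower and 0 higher, beside 0.86% and 1.7% of all. With the 6 PSK libraries alone it called 1 lower and 0 higher, beside 0.628% and 1.69% of all. Their CYP79F1, which starts the pathway from chain-elongated methionine, was at 195, 201 and 208 CPM and at 164, 168 and 185 CPM (log2 -0.22, adjusted p = 0.157, and 0.0044 without Col-0 replicate 3). The thalianol pathway, a root triterpene cluster, had 7 of 7 positive changes with a median of 0.08, 0 at an unadjusted p under 0.05 and 0 calls by either tool. Its thalianol synthase THAS1 was at 57.7, 44.3 and 58.2 CPM and at 63.7, 50.4 and 55.5 CPM, with a 95% interval from -0.35 to 0.51, beside 22.3 ± 6.14 CPM (SD, n = 3) in untreated tpst.

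The largest difference between the doses lay outside nuclear messenger RNA. Ribosomal RNA is made in the nucleolus, the mitochondrion and the chloroplast and mostly lacks the poly(A) tail on which the libraries were selected, so its counts are a remainder. It took 0.345%, 0.287% and 0.333% of all counts in the 100 nM libraries and 0.0627%, 0.0577% and 0.0532% in the 1 µM libraries, a ratio of 5.56. The groups were far apart, and the exact two-sided permutation test gave p = 0.1, the smallest that 3 libraries against 3 allow. Untreated tpst was at 0.334 ± 0.00895% (SD, n = 3). The mitochondrial share without rRNA was 0.00263 ± 0.0000809% at 100 nM and 0.00107 ± 0.000136% at 1 µM (SD, n = 3), a ratio of 2.45, and the chloroplast share without rRNA 0.0277 ± 0.0015% and 0.0238 ± 0.000753% (SD, n = 3), a ratio of 1.17, each with p = 0.1 in the same exact permutation test. The 1 µM libraries also had fewer counts, 17066292 to 19993257 beside 21860470 to 24948416 at 100 nM. With every library thinned to the smallest total, the same 10 rRNA and organelle genes were called. How far the poly(A) selection differed between libraries was not tested.

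**Figure D5:**
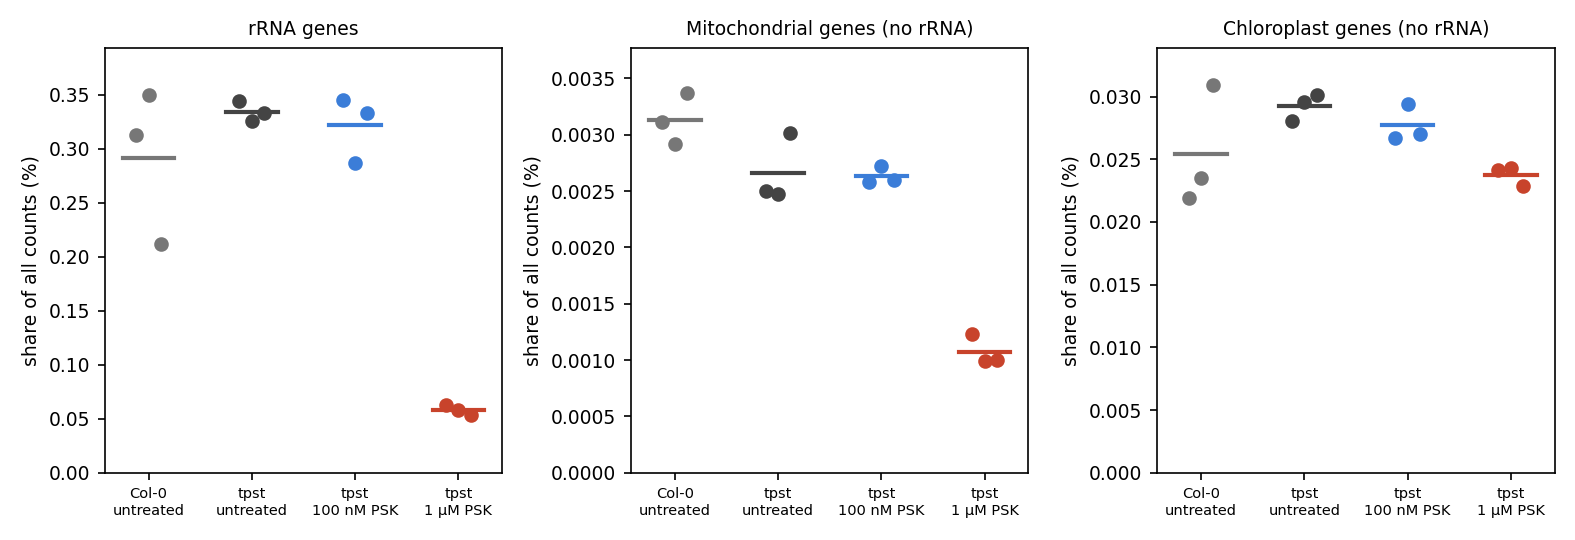
Share of all counts in percent (vertical axes, each from 0) taken by rRNA genes, by mitochondrial genes and by chloroplast genes in each of the 12 libraries, with a bar at the group mean. The rRNA share is near 0.3% in both tpst groups without 1 µM PSK and at 0.0579% on average with 1 µM PSK, and Col-0 replicate 3 is lower than its group.

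Of the 9 rRNA genes tested, 7 (77.8%) were called, all lower at 1 µM and all by more than 2-fold. The nuclear rRNA gene AT3G41768 (chromosome 3, 14197677 to 14199484) was at 3210.2, 2545 and 2987 CPM with 100 nM and at 557, 507 and 458 CPM with 1 µM (log2 -2.52, SE 0.218, adjusted p = 0.00334), with untreated tpst at 2971 CPM. The mitochondrial rRNAs RRN18 and RRN26 fell by 2.58 and 1.67 on the log2 scale, RRN18 from 166, 203 and 243 CPM to 31.4, 38.0 and 33.5 CPM. The chloroplast rRNAs, each present in 2 copies of an inverted repeat, fell by between 2.05 and 2.90 on the log2 scale. How fragments that align to both copies were counted is not given in the sources used here. RRN23S.1 lost its call without 1 µM replicate 2 (adjusted p = 0.0835). The rRNA genes AT2G01010 and AT2G01020 at the end of chromosome 2 were not called (log2 -0.45 and -0.52, adjusted p = 0.316 and 0.185). None of the 7 was called at 100 nM against untreated tpst, and all 7 were called at 1 µM against it.

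Over all 100 tested rRNA and organelle genes 10 (10%) were called, all lower, and the 3 that are not rRNA were ORF107A, RBCL and PSBC. ORF107A, an open reading frame next to RRN26 in the mitochondrial genome, was at 10.2, 12.1 and 11.8 CPM with 100 nM and at 3.22, 2.47 and 3.07 CPM with 1 µM (log2 -1.95, adjusted p = 5.58e-08). RBCL, the chloroplast gene for the large subunit of Rubisco, was at 38.9, 39.7 and 32.7 CPM and at 17.7, 21.1 and 17.9 CPM (log2 -0.97, SE 0.0985, adjusted p = 1.79e-06). PSBC, for the CP43 protein of photosystem II, fell by 1.15 on the log2 scale (adjusted p = 0.00421, and 0.0647 without 1 µM replicate 2). The other chloroplast messenger RNAs with high counts were not called: RPOB was at a log2 of -0.09 (adjusted p = 0.851), ATPB at -0.28 (0.485) and RPOC1 at -0.28 (0.494). Mitochondrial genes without rRNA had a median of -1.07 over 17 tested, 16 of them below 0, but apart from ORF107A and ATMG00090 their means at 100 nM were below 1.2 CPM.

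Among the 475 tested nuclear genes that are neither protein-coding nor rRNA, 2 (0.421%) were called and are both given. AT1G79075 (chromosome 1, 29745939 to 29746842), annotated as a non-coding RNA, was at 8.13, 9.48 and 7.68 CPM with 100 nM and at 21.4, 20.3 and 24.8 CPM with 1 µM (log2 1.398, SE 0.158, adjusted p = 6.02e-05) and was called in all 22 alternative fits that included it. AT3G06355 (chromosome 3, 14199575 to 14200076), a long non-coding RNA that overlaps the rRNA gene AT3G41979 on the same strand, fell by 0.52 on the log2 scale (adjusted p = 0.0365, and up to 0.188 without 100 nM replicate 1 or 3, 1 µM replicate 1 or 2 or untreated tpst replicate 1). Its call was also lost with thinned counts (0.0566) and with the length and GC offsets (0.0675). The nuclear gene AT2G01021, annotated as protein-coding but located beside the rRNA genes at the end of chromosome 2, was at 1.79, 2.17 and 2.49 CPM and at 0.614, 0.481 and 0.848 CPM (log2 -1.72, adjusted p = 0.0683, and 0.000845 without Col-0 replicate 3), a value chosen for description after it was seen.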

How the data were processed

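Poly(A)-selected RNA of pooled whole seedlings was sequenced in 12 libraries, although an extraction note in the labels speaks of separated shoots and roots. The authors trimmed reads with fastp, aligned them to TAIR10 with HISAT2 2.0.5 and counted fragments per gene with featureCounts 1.5.0-p3. The deposited table holds these raw counts, and FPKM values (fragments per kilobase of gene and 1000000 fragments) that the authors derived from them, which were not used in any test. Coordinates are those of the table, of which 32532 of 32548 nuclear genes matched RefSeq TAIR10.1, and organelle coordinates were not checked.

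The counts entered edgeR 4.0.16 under R 4.3.3 (filterByExpr, TMM scaling, robust quasi-likelihood test, 1 term per group over 12 libraries, 8 residual degrees of freedom, two-sided, Benjamini-Hochberg over 20506 genes, which hold 99.96% of counts). The procedure was tested on simulated data. A gene was called at an adjusted p under 0.05. Alternatives were DESeq2 1.42.0, other scalings and filters, thinned counts, fewer libraries, a replicate block and, added after seeing the data, length and GC offsets. Total counts were 17066292 to 24948416 per library, so counting error weighs most on genes of a few CPM. Its part at higher levels was not measured. Named genes were called nuclear genes with separate doses and a mean of at least 5 CPM (12 by size and 6 by level in each direction), up to 4 members per list, the 4 highest genes of each rRNA or organelle class, and TPST, PSK precursors and receptors; exceptions are stated. Of 896 list entries given by symbol, 873 were matched. The members and lists were chosen with earlier results of these data known. Means carry the SD over 3 libraries.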

Additional observations from a re-analysis of the deposited data

How the results depend on the processing

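For nuclear protein-coding genes the count of 37 calls rose to 82 without the filter on low counts (97 over all genes, against 49), to 130 with DESeq2 (148) and to 447 with only the 6 PSK libraries (467). It was 56 with the length and GC offsets and 91 when these were joined to the replicate block (103 over all genes). Leaving out each library in turn gave 6 to 514 calls in nuclear protein-coding genes, 17 to 535 over all genes and 8 to 15 among rRNA and organelle genes, where the count of 10 was within 1.5 times under every alternative run. No direction of a named gene that was called in either fit reversed, and the log2 shares of rRNA, mitochondrial and chloroplast counts moved by less than 1 SD in all alternatives run for them. The replicate numbers gave correlations of 0.26, 0.087 and 0.0986 between same-numbered libraries of the doses, so they were not taken as pairs. Between the doses each library correlated best with its own number. Between untreated tpst and the doses this did not always hold: tpst replicate 2 gave -0.084 with 100 nM replicate 2 and 0.112 with 100 nM replicate 1. With the replicate block the calls were 83 in nuclear protein-coding genes, all 37 included, 95 over all genes and 10 in rRNA and organelle genes, and PCO1 and PCO2 had adjusted p-values of 8.18e-05 and 0.0236. Other scalings moved the median of nuclear protein-coding genes by less than 0.01 on the log2 scale. Low counts limit the mitochondrial messenger RNAs and PSK2, whose 95% intervals did not exclude a 2-fold difference.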
